A study of Homo sapiens with 8 samples.

Results

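ANKHD1 is a protein-coding gene on chromosome 5 (ENSG00000131503.20, chr5:140401814-140539856 on hg38, plus strand), with 21 transcripts and 45 introns in GENCODE release 29. Its splice junctions were taken as every junction that is assigned to ANKHD1 or lies within it on the plus strand, 153 of the 860791 listed across all libraries. The gene was chosen by measured values, the shares of acceptors (3' splice sites) of 2 of its introns, which differed between genotypes at day 4. The day 4 values of ANKHD1 are therefore a description, and a day 4 call at one of its junctions supports nothing. Its day 8 values were not used in the choice and were tested, as were other genes on both days. Of the 153 junctions, 45 were GENCODE introns, which carried 99.3% of the unique reads, and 108 were not. In all, 54 junctions had 5 unique reads in at least 2 libraries, 44 of them annotated. The other 99 reached at most 21 reads in any library.

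ANKHD1 encodes a large scaffold protein with ankyrin repeats and a KH domain, a fold that binds RNA. Its Drosophila orthologue, Mask, is a cofactor of Yorkie, the fly counterpart of the Hippo pathway effector YAP, and in human leukaemia cells ANKHD1 has been described as a partner of the phosphatase SHP2 (PTPN11). SF3B1 belongs to the U2 snRNP and takes part in choosing the branch point in front of an acceptor. Its hotspot substitutions, such as K700E of myelodysplastic syndromes, are known for bringing cryptic acceptors into use, most often a short distance upstream of the usual one.

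Total RNA was sequenced from K562, an established human erythroleukaemia line that carried SF3B1 with the K700E substitution or as wild type. All cells received doxycycline at 1 ug/ml to induce the modified allele. There were 4 groups of 2 libraries: K700E at day 4, wild type at day 4, K700E at day 8 and wild type at day 8. The labels do not say whether a genotype was a single clone or whether replicates were grown separately, so p-values measure only the spread between these libraries, which may be technical. The labels call the cells epithelial. The erythroid markers GATA1 and TFRC were at 121 to 211 and 600 to 1444 CPM over the 8 libraries, while the epithelial marker CDH1 was at 0 to 0.041 CPM KRT18 at 214 to 1182 CPM and EPCAM at 6.83 to 110.4 CPM. Of 5 epithelial markers, 4 were tested at day 4 and 0 were called (lowest adjusted p = 0.094 by edgeR), with 3 lower in both K700E libraries. Of 9 erythroid markers, 9 were tested and 0 called, with 1 higher and 3 lower. Over all genes 26.5% were higher and 28.2% lower in this sense. Their part in the results was not tested.

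Libraries held 49338071 to 77750812 unique junction reads. Junction counts carry no base calls, so the labels were set beside 20 known SF3B1 hotspot targets other than ANKHD1, by the median share of their near-upstream acceptor (1 to 50 nt upstream of the most used one). This median was 30.1% and 34.1% in K700E and 2.08% and 3.19% in wild type at day 4. At day 8, replicates 1 and 2 labelled K700E gave 3.48% and 31.4%, and replicates 1 and 2 labelled wild type gave 0.255% and 33.4%. Thus 1 library of each genotype went against its label at day 8; none was moved, and each is given by its label. Junctions with 1 to 4 unique reads were also scarce in both day 8 libraries labelled wild type, at 3.53% and 14.6% of the junctions with a unique read, against 43.3% to 50.7% in the other 6 libraries. The part of either in the day 8 results was not tested.

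The results turn first on the acceptors of exon 3 (of the 34 exons of ANKHD1-203, the transcript with the most exons). The donor (5' splice site) at the end of exon 2 was joined to 3 annotated acceptors, the most used one and others 33 nt and 42 nt downstream of it inside the exon. The most used acceptor belongs to 6 transcripts, 5 of ANKHD1 (among them ANKHD1-203) and 1 of the readthrough gene described further on, the one 33 nt downstream to ANKHD1-204 and the one 42 nt downstream to ANKHD1-220. The start of exon 3 (chr5:140438461-140438530, hg38, plus strand, from the GENCODE release 29 transcripts) is printed because it holds both inner acceptors. Capitals mark the AG that ends each longer intron.
exon 3 from the most used acceptor: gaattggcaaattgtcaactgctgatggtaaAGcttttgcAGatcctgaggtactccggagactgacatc
In the 20 nt before its AG, the acceptor 33 nt downstream had 10 pyrimidines, and so did the one 42 nt downstream. Both windows lie within the exon. Use of the acceptor 33 nt downstream leaves out the following coding bases, shown in capitals throughout.
left-out 33 nt: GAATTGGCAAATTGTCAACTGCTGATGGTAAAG
The 33 nt have the length of 11 codons and start within codon 154 of the 2542 of ANKHD1-203. With them removed, the remaining coding sequence held no stop codon before its end. Use of the acceptor 42 nt downstream leaves out the length of 14 codons, also in frame.

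The acceptor 33 nt downstream (chr5:140436258-140438493) took over 20% of its donor's reads in K700E cells at day 4 and was rare in wild type. It had 238 of 1068 reads (22.3%, 95% Wilson interval 19.9% to 24.9%) and 207 of 937 reads (22.1%, 19.6% to 24.9%) in the K700E libraries. In wild type it had 9 of 1004 reads (0.896%, 0.472% to 1.70%) and 5 of 1212 reads (0.413%, 0.176% to 0.962%). The groups did not overlap, at 22.2% ± 0.14 in K700E and 0.654% ± 0.34 in wild type (SD, n = 2 each), a difference of 21.5 percentage points. These intervals cover counting error within a library only, not the spread between libraries. Reads without molecular identifiers are not independent molecules, so the intervals may be too narrow even for that.

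At day 8 the same acceptor split the libraries within each label. Replicates 1 and 2 labelled K700E had 8 of 565 reads (1.42%, 0.719% to 2.77%) and 139 of 634 reads (21.9%, 18.9% to 25.3%). Replicates 1 and 2 labelled wild type had 11 of 999 reads (1.10%, 0.616% to 1.96%) and 234 of 654 reads (35.8%, 32.2% to 39.5%). Replicate 2 was high and replicate 1 low under both labels, so the groups overlapped. The difference of -6.77 points was not called (adjusted p = 1.0, edgeR's quasi-likelihood test with Benjamini-Hochberg adjustment over all junctions). The 4 libraries in which this share was above 20% were those in which the median of the known targets was above 30%. The highest ANKHD1 share, in replicate 2 labelled wild type, did not belong to the highest median.

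**Figure D1:**
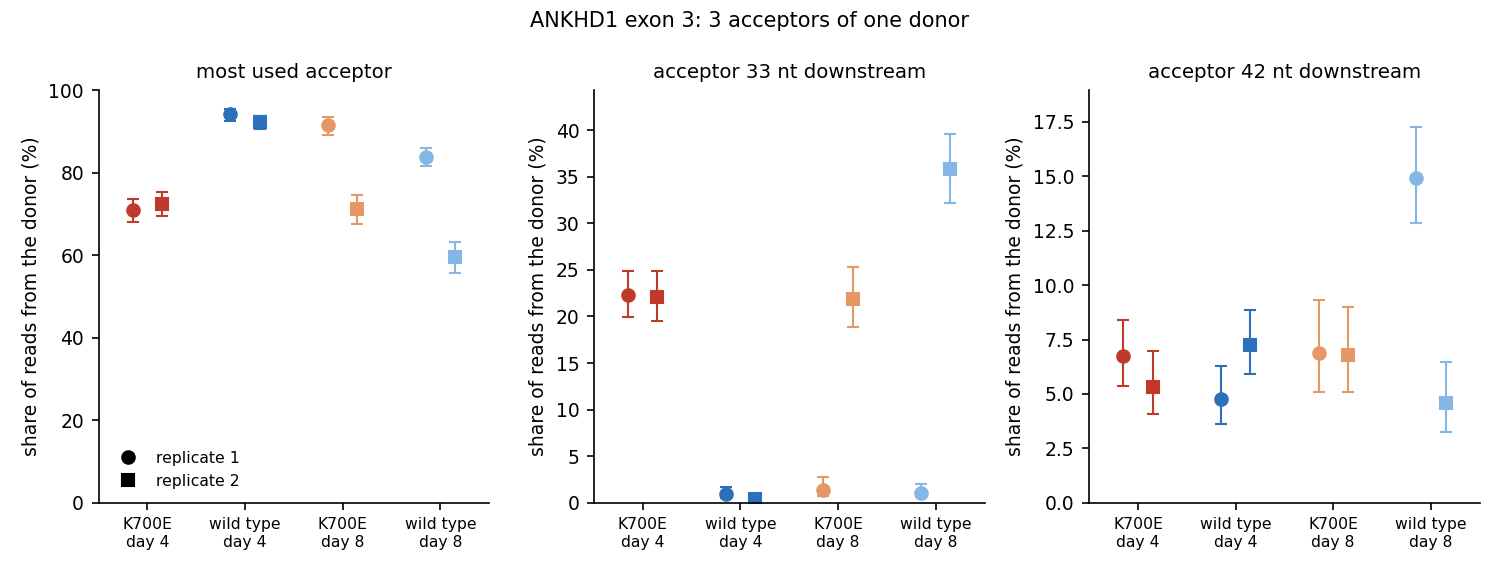
Share of the unique reads from the exon 2 donor of ANKHD1 (%, y axis, scaled per panel) that went to the most used acceptor and to those 33 nt and 42 nt downstream, for each library by labelled group (x axis); points are libraries and bars 95% Wilson intervals. The acceptor 33 nt downstream was at 22.3% and 22.1% in K700E and at 0.896% and 0.413% in wild type at day 4, and split within each label at day 8.

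**Figure D2:**
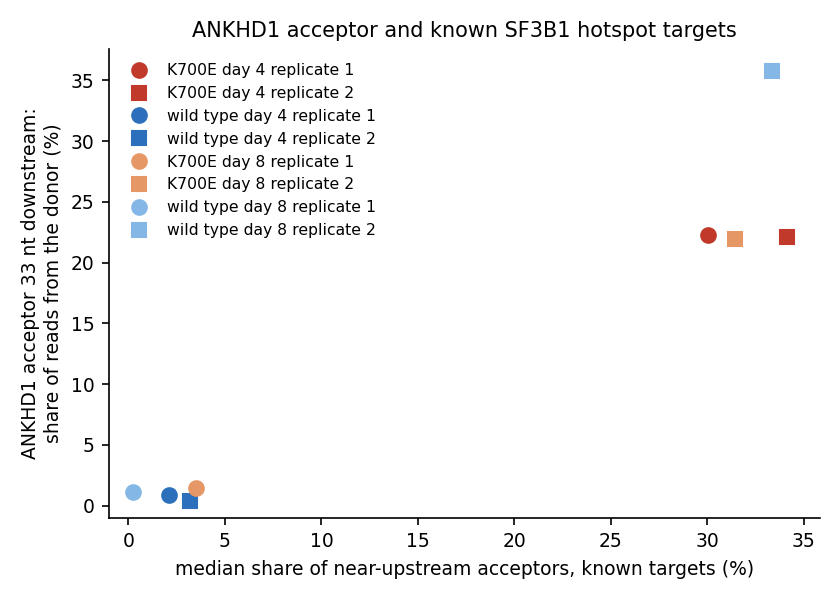
Share of the ANKHD1 acceptor 33 nt downstream (%, y axis) against the median share of near-upstream acceptors of 20 known SF3B1 hotspot targets (%, x axis), with 1 point per library. The libraries fall into 2 clusters of 4, and each cluster holds 1 library of each day 8 label.

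The higher share at day 4 came with a lower share of the most used acceptor and not of the one 42 nt downstream. The most used acceptor (chr5:140436258-140438460) took 71.0% and 72.6% in K700E and 94.2% and 92.3% in wild type at day 4, a difference of -21.5 points. For the acceptor 42 nt downstream (chr5:140436258-140438502) the shares were 6.74% and 5.34% in K700E and 4.78% and 7.26% in wild type, and the groups overlapped. In the day 8 libraries this acceptor took 6.90% and 6.78% under the label K700E, against 14.9% and 4.59% under the label wild type. Replicate 1 labelled wild type was the highest of all 8, and the difference of -2.91 points was not called (adjusted p = 1.0 by edgeR).

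An unannotated acceptor lay 20 nt upstream of the usual acceptor of the intron chr5:140505234-140505723, the placement for which SF3B1 hotspot mutants are best known, and its use was low. Its junction (chr5:140505234-140505703) had 9 of 983 reads (0.916%) and 18 of 800 reads (2.25%) in K700E at day 4. In wild type it had 0 of 669 and 0 of 889 reads, counts that allow shares of up to 0.448% and 0.337%. Both K700E libraries were thus above both wild-type libraries. In the day 8 libraries labelled K700E it had 0 of 464 reads, which allows up to 0.647%, and 3 of 526 reads (0.570%). In those labelled wild type it had 0 of 907 reads, which allows up to 0.331%, and 7 of 596 reads (1.17%). The limit of 0.331% holds only if low counts were kept in that library, where 0 ANKHD1 junctions had 1 to 4 reads. The libraries with reads on it were the 4 that used the acceptor 33 nt downstream at over 20%. The added 20 nt are not a multiple of 3, and the intron sequence around this site was not analysed here.

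A second annotated downstream acceptor, 48 nt inside exon 14, went the other way at day 4. Its junction (chr5:140485733-140487005, used by ANKHD1-201) had 41 of 787 reads (5.21%) and 34 of 663 reads (5.13%) in K700E. It had 58 of 544 reads (10.7%) and 103 of 783 reads (13.2%) in wild type, with no overlap and a difference of -6.74 points. Replicates 1 and 2 labelled K700E at day 8 gave 13.2% and 5.26%, and replicates 1 and 2 labelled wild type gave 9.22% and 1.77%. Replicate 2 was lower than replicate 1 under both labels, and the difference of 3.74 points was not called (adjusted p = 1.0 by edgeR). The lowest share of the 8 libraries, 1.77%, was in the library with the highest share of the acceptor 33 nt downstream. The end of the intron and the 48 nt (chr5:140486908-140487017, hg38, plus strand, from GENCODE release 29 transcripts) are printed to show the spacing of both acceptors, with their AGs in capitals.
intron 13 end and exon 14 start: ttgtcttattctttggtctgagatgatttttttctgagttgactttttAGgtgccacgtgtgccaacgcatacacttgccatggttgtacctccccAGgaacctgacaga
Of the 20 nt before each AG, 15 were pyrimidines at the most used acceptor and 14 at the one 48 nt downstream. The 48 nt hold codons 715 to 730 of ANKHD1-203, so either choice keeps the frame.

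Few ANKHD1 junctions met the call rule, an adjusted p under 0.05 with a change of at least 5 points. At day 4, 30 of its junctions were tested and 1 was called, the acceptor 33 nt downstream, against 0.468% of the 69838 junctions tested (0.359% called higher). The choice of the gene used that contrast, so nothing is read from the count. A difference of at least 5 points between group means, called or not, was seen at 7 of the 30 and at 22.5% of all junctions tested. The median absolute difference was 2.16 points in ANKHD1 and 1.55 points over all. At day 8, 23 ANKHD1 junctions were tested and 0 were called by edgeR or by limma, with 0 at an unadjusted p under 0.05 in edgeR. Over all 63314 junctions tested at day 8, 0.0% were called and 1765 had an unadjusted p under 0.05. At day 8 a difference of at least 5 points between group means was seen at 9 of the 23 and at 28.3% of all junctions tested. The median absolute difference was then 3.74 points in ANKHD1 and 2.08 points over all.

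As a share of the donor's reads, skipping of a 57 nt exon between exons 10 and 11 of ANKHD1-203 was higher under the label K700E on both days. In 3 short ANKHD1 transcripts the last exon starts there. The skipping junction (chr5:140464777-140482579) took 32.8% and 33.3% of the donor's reads in K700E and 25.9% and 27.2% in wild type at day 4. Its day 8 shares were 49.6% and 50.3% in libraries labelled K700E and 28.1% and 32.0% in those labelled wild type. The groups did not overlap on either day, and the share of all junctions without such overlap was not counted here. The day 8 difference of 19.9 points was not called (adjusted p = 1.0 by edgeR). The day 8 label is in doubt for a library of each genotype. Replicate 2 of each label, with known-target medians of 31.4% and 33.4%, had skipping shares of 50.3% and 32.0%. Replicate 1 of each label, with medians of 3.48% and 0.255%, had 49.6% and 28.1%. Reads into the exon include those of transcripts that end in it, so this share does not separate skipping from use of those ends. Of the reads into the exon 11 acceptor, the skipping junction took 54.3% and 53.4% in K700E and 53.1% and 48.7% in wild type at day 4. At day 8 it took 60.8% and 66.7% under the label K700E and 61.1% and 56.7% under the label wild type, overlapping.

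Reads into the 57 nt exon outnumbered reads out of it in every library. At day 4 there were 495 and 398 in and 201 and 171 out in K700E, and 585 and 600 in and 179 and 234 out in wild type. The day 8 libraries labelled K700E had 183 and 221 in and 114 and 112 out, and those labelled wild type had 591 and 369 in and 147 and 133 out. Per 1e+06 junction reads, 6.37 and 6.04 entered the exon in K700E and 9.60 and 8.16 in wild type at day 4. On the same scale 2.58 and 2.60 left it in K700E and 2.94 and 3.18 in wild type, so both were lower in K700E. Under the day 8 labels the scaled reads in were 3.71 and 3.63 for K700E and 8.32 and 6.03 for wild type, and the scaled reads out overlapped.

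Near the 3' end, an annotated acceptor 51 nt downstream (chr5:140535539-140537388) gave the lowest day 8 p-value of any ANKHD1 junction. It took 6.53% and 6.57% in the day 8 libraries labelled K700E and 24.2% and 14.4% in those labelled wild type. These groups did not overlap, and the difference of -12.7 points was not called (adjusted p = 1.0 by edgeR). At day 4 the shares were 10.7% and 15.9% in K700E and 18.3% and 15.0% in wild type, and the groups overlapped.

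Skipping of the 759 nt exon 15 (chr5:140487061-140504820) took 10.6% and 12.5% in K700E and 9.78% and 8.76% in wild type at day 4. It took 24.2% and 16.2% in day 8 libraries labelled K700E and 23.8% and 19.8% in those labelled wild type. All 4 day 8 libraries were above all 4 day 4 libraries, a comparison that was not tested. A 96 nt exon was skipped by an unannotated junction (chr5:140510182-140513362) at 6.64% and 1.12% in K700E and 6.30% and 11.02% in wild type at day 4, and at no more than 1.69% in any day 8 library. A 177 nt exon was skipped by an unannotated junction (chr5:140529797-140537337) at 1.5% and 9.12% in K700E and 3.75% and 4.2% in wild type at day 4. For this exon the day 8 shares were 7.69% and 7.18% in libraries labelled K700E and 9.12% and 10.2% in those labelled wild type. Replicates of 1 group differed several-fold for both of these unannotated junctions at day 4.

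The last donor of ANKHD1 is shared with ANKHD1-EIF4EBP3, a readthrough gene that joins ANKHD1 to EIF4EBP3, which encodes an inhibitor of translation initiation. Splicing into the readthrough exon (chr5:140539084-140542171) took 15.2% and 17.9% in K700E and 12.8% and 14.7% in wild type at day 4, with the groups apart. Replicates 1 and 2 labelled K700E at day 8 had 17.5% and 31.8%, against 23.1% and 17.8% in those labelled wild type. These overlapped, and the difference of 4.16 points was not called (adjusted p = 1.0 by edgeR).

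Past that exon the readthrough had an unannotated acceptor of its own, 17 nt upstream of the usual one (chr5:140542282-140548888). It had 7 of 122 and 3 of 133 reads in K700E at day 4. Wild type had 0 of 113 and 0 of 133 reads, which allow up to 2.65% and 2.26%. Replicates 1 and 2 labelled K700E at day 8 had 0 of 87 and 11 of 173 reads, and those labelled wild type had 0 of 179 and 4 of 129 reads. Again replicate 2 of each label held the reads, though low counts may be missing from the day 8 libraries labelled wild type. Another unannotated acceptor 17 nt upstream, within ANKHD1 itself (chr5:140506978-140507767), did not separate the libraries this way. It had 3 and 3 reads in K700E and 0 and 7 in wild type at day 4, and 0 and 9 in day 8 libraries labelled K700E and 0 and 0 in those labelled wild type.

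Of the remaining named junctions, one from the donor of the 57 nt exon (chr5:140472296-140472380, unannotated) took 3.36% and 0.581% in K700E and 5.18% and 2.90% in wild type at day 4, overlapping. Its day 8 shares were 0.870% and 2.61% in libraries labelled K700E and 8.70% and 5.0% in those labelled wild type, without overlap, and it was not called (adjusted p = 1.0 by edgeR). An unannotated acceptor 51 nt downstream in a later intron (chr5:140538262-140538969) took 2.17% and 1.49% in K700E and 2.48% and 2.00% in wild type at day 4, and reached 7.33% in replicate 2 labelled wild type at day 8. On the donor side, 16 ANKHD1 junctions were tested at day 4 for the share of each donor among the reads of 1 acceptor. Of these 0 were called, against 0.0309% of 64625. At day 8, 0 of 12 were called by edgeR or limma, against 0.0% of 59492, with 0 of the 12 at an unadjusted p under 0.05 in edgeR.

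**Figure D3:**
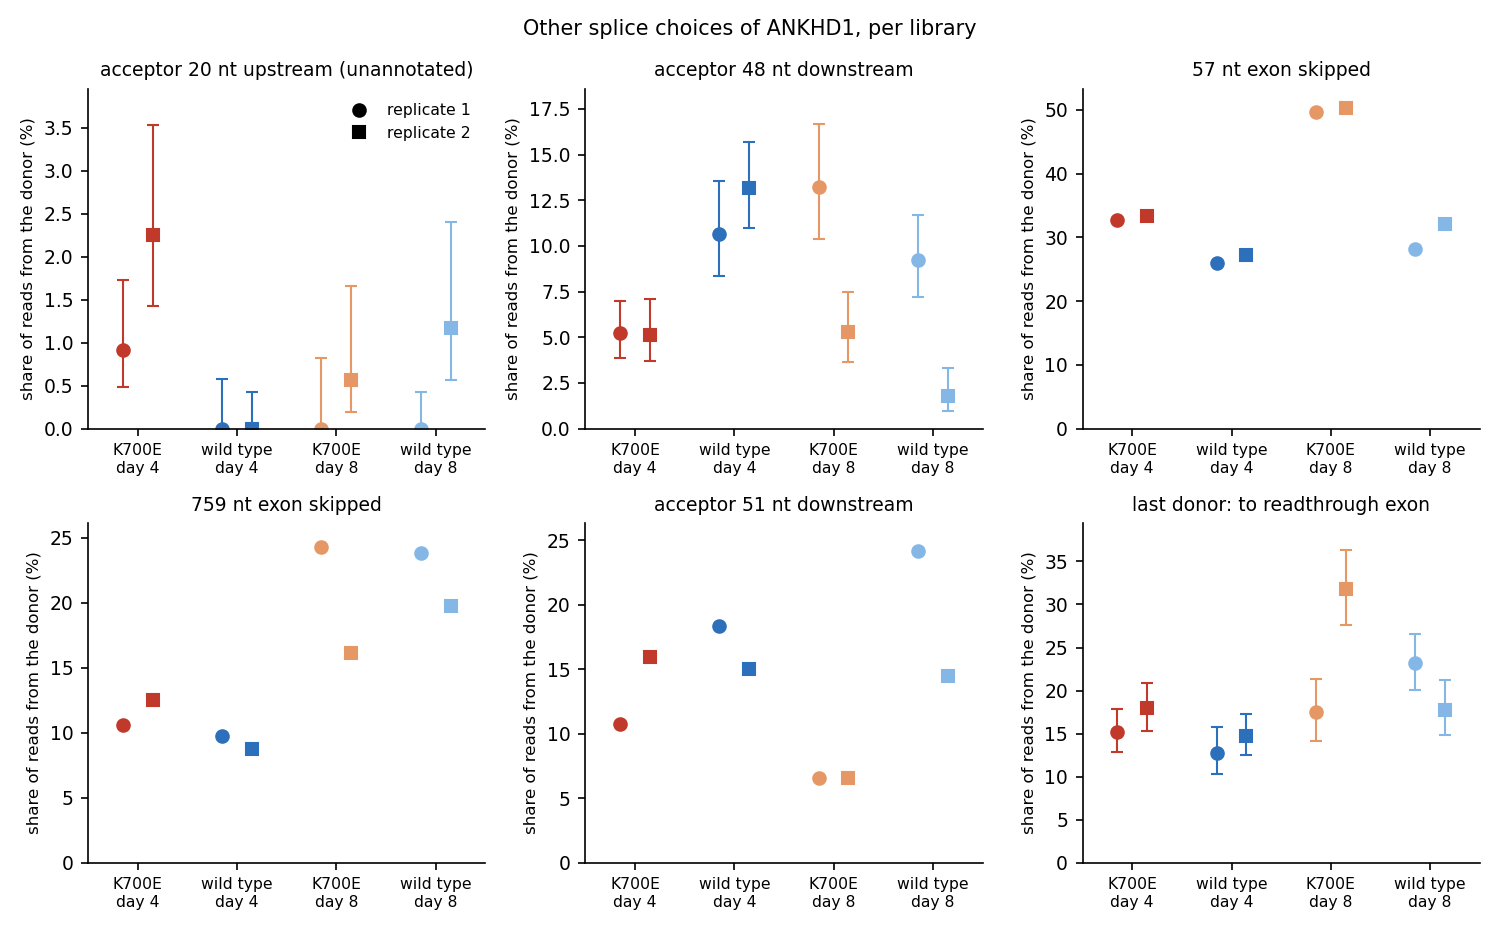
Further splice choices of ANKHD1 as a share of the unique reads from their donor (%, y axes, each from 0), per library by labelled group (x axis); bars, where drawn, are 95% Wilson intervals. The donor share of the junction that skips the 57 nt exon was higher in both libraries labelled K700E than in both labelled wild type on each day. The acceptors 20 nt upstream and 48 nt downstream split within the day 8 labels.

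In summed junction reads, ANKHD1 had a mean level above that of 96.4% of the 14933 genes compared. Levels were not corrected for length or for the number of introns, 45 in ANKHD1, so this rank depends on both. Summed over its introns it had 27023 and 22157 reads in K700E and 21038 and 28022 in wild type at day 4, or 369 and 362 CPM in K700E and 394 and 449 CPM in wild type. The means were 366 ± 4.8 CPM in K700E and 421 ± 39 CPM in wild type (SD, n = 2 each), a log2 fold change of -0.19 (SE 0.12). The groups did not overlap, as was so in this direction for 28.2% of all genes tested. Day 8 libraries labelled K700E had 293 and 238 CPM and those labelled wild type had 331 and 248 CPM, overlapping, with a log2 fold change of -0.16 (SE 0.26, adjusted p = 0.9999 by edgeR).

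The level was called on neither day, against 0.535% of 14027 genes at day 4 and 0.0% of 14024 at day 8, where 406 had an unadjusted p under 0.05 in edgeR and DESeq2 called 20. In bulk RNA, fewer cells of a type and less RNA per cell cannot be told apart. Introns that ANKHD1 shares with the readthrough gene, 34 of the 45, were counted for ANKHD1. On the introns of ANKHD1 alone the day 8 log2 fold change was -0.42 (SE 0.25, adjusted p = 0.9998 by edgeR). These held few of the reads, 886 of 14107 and 954 of 14819 under the label K700E and 1665 of 24092 and 1329 of 15626 under the label wild type. They include the introns that end at the acceptors 33 nt, 42 nt and 48 nt downstream, whose shares differed between libraries. This value is thus not a cleaner measure of the gene's level.

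Junction reads were not even along the gene. Over the 10 donors up to the alternative ends, the median number of reads per 1e+06 junction reads was 13.5 and 13.9 in K700E and 15.3 and 16.0 in wild type at day 4. Over the 23 donors after them it was 9.83 and 9.26 in K700E and 8.34 and 10.3 in wild type. The ratio of the upstream to the downstream median was 1.38 and 1.498 in K700E and 1.83 and 1.55 in wild type, lower in both K700E libraries. For day 8 the ratio was 1.23 and 1.27 in libraries labelled K700E and 1.40 and 1.43 in those labelled wild type, again lower under the label K700E. How well each junction can be mapped was not corrected for.

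**Figure D4:**
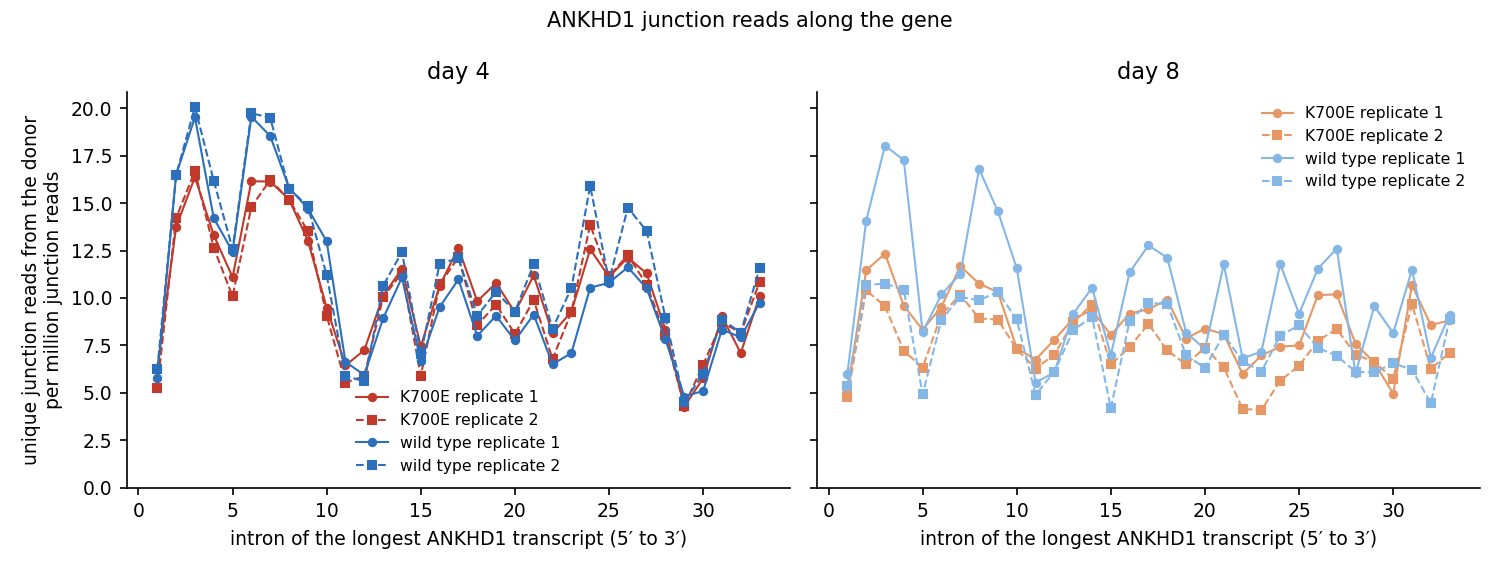
Unique reads from each donor of the ANKHD1 transcript with the most exons, scaled to the library's junction reads (y axis), in order along the transcript (x axis), at day 4 (left) and day 8 (right), with 1 line per library. At day 4 the median over the first 10 donors was above that over the 23 after them in each library, with single later donors reaching the earlier level. At day 8 replicate 1 labelled wild type stands above the others at many introns, among them 2 to 4, 8 to 10 and 16 to 18, though not at all.

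ANKRD17, the close paralogue of ANKHD1 with the same domains, had 244 and 241 CPM in K700E and 308 and 306 CPM in wild type at day 4 (log2 fold change -0.33, SE 0.11) and was not called. Day 8 libraries labelled K700E had 231 and 203 CPM and those labelled wild type had 337 and 216 CPM (log2 fold change -0.39, SE 0.29, adjusted p = 0.9999 by edgeR). The readthrough's own introns had 3.20 and 4.22 CPM in K700E and 3.53 and 4.05 CPM in wild type at day 4. EIF4EBP3 was at 2.00 and 2.21 CPM in K700E and 1.67 and 2.69 CPM in wild type. Neither was called on either day.

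**Figure D5:**
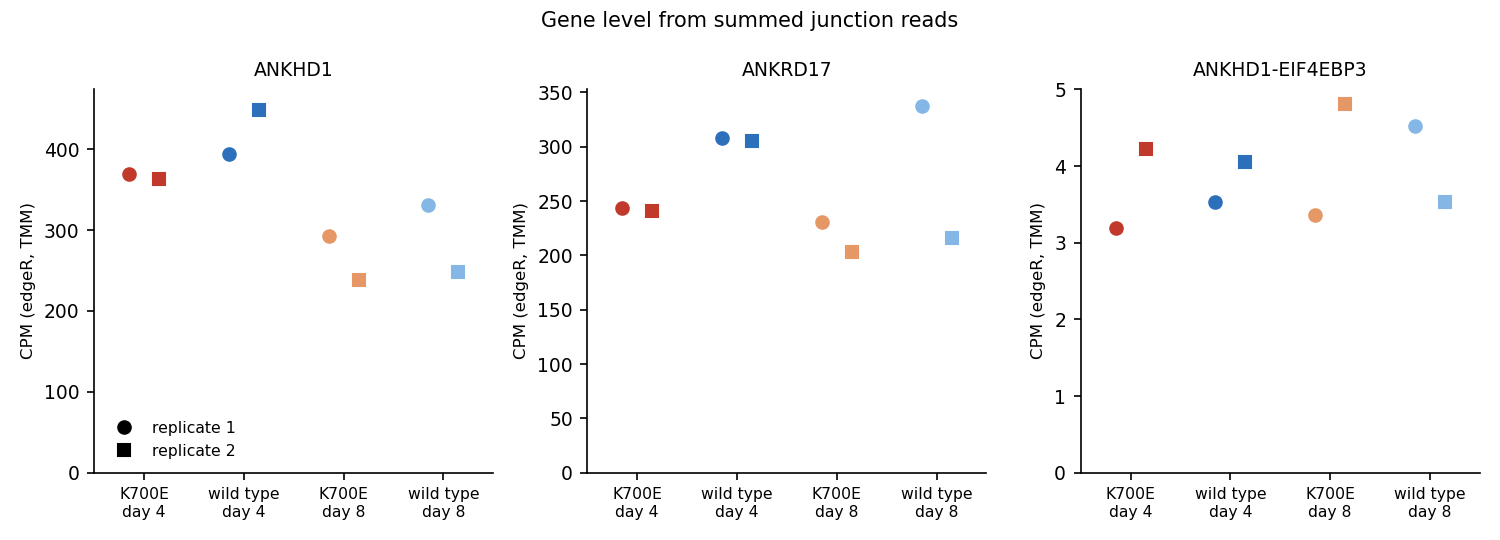
Level of ANKHD1, its paralogue ANKRD17 and the readthrough ANKHD1-EIF4EBP3 (CPM from summed junction reads, y axes from 0), per library by labelled group (x axis). ANKHD1 and ANKRD17 were lower in both K700E libraries than in both wild-type libraries at day 4, and the groups overlap at day 8.

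No gene of the 4 lists linked to ANKHD1 was called by the main edgeR fit on either day. At day 4 DESeq2 called 2 of their genes, and 1641 of all 14027 genes tested. With no filter on low counts edgeR called 4 of their genes at day 4, and 1566 of all 19745 tested. Among Hippo kinases and scaffolds, which restrain YAP, 13 of 16 were tested at day 4 and 0 called, the lowest adjusted p being 0.118 by edgeR. Of the 13, 4 had an unadjusted p under 0.05, against 21.4% of all genes. In both K700E libraries 4 were higher and 3 lower, against 26.5% and 28.2% of all genes. Their median log2 fold change was 0.05, against 0.02 over all genes. The 4 most expressed were TAOK3, TAOK1 and MOB1A, which act upstream of or with the LATS kinases, and AMOTL1, which binds YAP at cell junctions. AMOTL1 had 140 and 122 CPM in K700E and 103 and 104 CPM in wild type at day 4 (log2 fold change 0.36, SE 0.13, adjusted p = 0.204 by edgeR). TAOK1 had 125 and 125 CPM in K700E and 124 and 128 CPM in wild type, overlapping. The other two overlapped as well, with TAOK3 at 165 and 238 CPM in K700E and 183 and 212 CPM in wild type and MOB1A at 114 and 120 CPM in K700E and 135 and 116 CPM in wild type.

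Of YAP, TAZ (WWTR1) and their partners 6 of 7 were tested at day 4 and 0 called, with 1 at an unadjusted p under 0.05 and a lowest adjusted p of 0.208 by edgeR. YAP1 was at 0 to 0.191 CPM over the 8 libraries and WWTR1 at 0 to 0.560 CPM. The TEAD factors, through which YAP and TAZ act on DNA, were expressed. TEAD1 was at 31.1 and 29.3 CPM in K700E and 28.0 and 24.4 CPM in wild type at day 4, and TEAD2 at 19.7 and 13.5 CPM in K700E and 29.2 and 22.8 CPM in wild type. TEAD3 was at 11.4 to 32.8 CPM and TEAD4 at 8.87 to 30.2 CPM over the 8 libraries.

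YAP targets gave 0 calls of 6 tested of 9 at day 4, with 0 at an unadjusted p under 0.05. The lowest adjusted p was 0.237 by edgeR, in the receptor kinase AXL, at 24.0 and 11.01 CPM in K700E and 39.8 and 29.4 CPM in wild type. BIRC5, which encodes survivin, had 63.5 and 67.4 CPM in K700E and 66.6 and 61.5 CPM in wild type. CRIM1 had 16.6 and 33.3 CPM in K700E and 21.9 and 27.6 CPM in wild type, and AJUBA 8.08 and 5.94 CPM in K700E and 6.57 and 5.33 CPM in wild type. AXL did not overlap between genotypes, and the other 3 did.

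The 4 other reported partners of ANKHD1 were all tested and 0 were called at day 4. The lowest adjusted p was 0.137 by edgeR, in STMN1, which encodes the microtubule-destabilising protein stathmin. STMN1 had 306 and 261 CPM in K700E and 383 and 434 CPM in wild type (log2 fold change -0.51, SE 0.14). PTPN11 had 147 and 235 CPM in K700E and 244 and 287 CPM in wild type (log2 fold change -0.46, SE 0.25). The pro-apoptotic SIVA1 had 8.24 and 8.46 CPM in K700E and 8.96 and 9.69 CPM in wild type. The cell cycle inhibitor CDKN1A had 6.46 and 4.22 CPM in K700E and 3.12 and 4.05 CPM in wild type, the only partner with the higher mean in K700E. At day 8, 0 of the 13, 5, 6 and 4 genes tested in the 4 lists were called, with 0, 0, 0 and 1 at an unadjusted p under 0.05 in edgeR.

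Over the 8 libraries and 32845 junctions compared, those of other genes whose share was most like that of the acceptor 33 nt downstream were unannotated acceptors in COQ4, ZNF124, CHTF18, TENM1 and ADGRV1. Pearson's r was 0.997, 0.995, 0.993, 0.991 and 0.991, and they lay 13, 46, 20, 1955 and 10 nt upstream of the most used acceptor. In CHTF18, which encodes a subunit of a clamp loader, the share was 41.2% and 42.4% in K700E and 0% and 0% in wild type at day 4. Replicates 1 and 2 labelled K700E at day 8 had 0% and 51.7%, and those labelled wild type 0% and 72.03%. All 5 had their highest share in replicate 2 labelled wild type at day 8, as did ANKHD1.

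For the acceptor 20 nt upstream the most alike were unannotated acceptors in MELTF (r = 0.987), BRF1 (0.982), E2F7 (0.973) and ZNF180 (0.973), and the most used acceptor of an intron of FOXP4 (0.979). In level, the most alike of 12890 genes were SCLT1 (r = 0.995 for log2 CPM), APPL1 (0.992), GTF2IP12 (0.992), TM2D1 (0.990) and ELP4 (0.989). All 5 were lower in each day 8 library than in each day 4 library, as was ANKHD1. These correlations are descriptions over 8 libraries that share their depth and their place in the 2 clusters.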

How the data were processed

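The submitters' processing notes name cutadapt, STAR and hg38. Per the file headers, the aligner was STAR 2.7.0e, its index held GENCODE release 29 junctions, release 22 was added at mapping, and a read could map to 10 places. The deposited values are raw counts of uniquely mapped reads per splice junction, per the file headers. An unannotated canonical junction needed an overhang of 12 nt and 1 unique read. Libraries were strand-specific, per the labels' protocols.

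A share is a junction's unique reads over all those of its donor, and positions are the first and last base of the intron. The fits (edgeR 4.0.16, limma 3.58.1, DESeq2 1.42.0) ran on the 4 libraries of each day alone. They covered all junctions with 5 unique reads in 2 libraries, at donors with 2 such junctions and a mean of 20 reads. Junction use was tested with edgeR's diffSpliceDGE, and gene levels with the quasi-likelihood test on reads summed over introns, with TMM and Benjamini-Hochberg adjustment. The steps were run on simulated day 4 data whose spread was set below that estimated over the libraries. That run gives no error rates for the real data. Junctions were named at a share of at least 5% in any library or a difference of at least 1 point on either day. Also named were the readthrough, the paralogue, the 4 highest expressed of each of 4 gene lists, and the 5 most alike junctions or genes. The members and lists were chosen with earlier results of these data known. CCN1 and SEPTIN6 were matched by gene ID to their release 29 symbols, and CCN2 was not analysed here.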

Additional observations from a re-analysis of the deposited data

Results flagged for a closer look

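The junction chr5:140497279-140504820, from exon 15 of ANKHD1 to the next exon, differed in opposite directions on the 2 days, and the day 8 direction rests on single reads. Its share of the donor's reads was 97.1% and 97.7% in K700E and 97.0% and 96.5% in wild type at day 4, so both K700E libraries were higher (difference 0.59 points). Day 8 libraries labelled K700E had 99.75% and 99.75% and those labelled wild type 100% and 100%, so both were lower (difference -0.25 points). The donor's other junction had 1 of 397 and 1 of 396 reads under the label K700E and 0 of 497 and 0 of 257 under the label wild type, counts of 0 that allow up to 0.604% and 1.17%. A day 8 difference was thus not detectable at this depth, and the files labelled wild type at day 8 are scarce in junctions of 1 to 4 reads. Tested over all 8 libraries, the difference between days was not called (adjusted p = 1.0 by edgeR).

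Of 24 named genes tested on both days, 4 were lower in both K700E libraries at day 4 and higher in both libraries labelled K700E at day 8, as were 5.43% of the 13362 genes tested on both days. STMN1 had a log2 fold change of -0.51 at day 4 and 0.57 at day 8, where it stood at 268 and 215 CPM under the label K700E and 146 and 170.5 CPM under the label wild type. TEAD2 had -0.63 at day 4 and 0.56 at day 8, with 44.6 and 44.2 CPM under the label K700E and 24.3 and 34.3 CPM under the label wild type. SIVA1 had -0.14 at day 4 and 0.84 at day 8, and the epithelial marker KRT18 had -0.84 at day 4 and 0.87 at day 8. The epithelial marker KRT8 and the erythroid marker HBG1, outside these 24 genes, showed the same pattern. The Hippo kinase STK4, also outside them, went the reverse way without overlap, as did 3.24% of the 13362 genes. Its log2 fold change was 0.18 at day 4 and -0.68 at day 8. The difference between days was not called for any of the 4 among the 24 (lowest adjusted p = 0.4721 by edgeR over 14933 genes). The day 8 labels of 1 library of each genotype are in doubt.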

How the results depend on the processing

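The choice of the gene fixed the day 4 call of the acceptor 33 nt downstream, so nothing is read from how often it recurred. With all 8 libraries in 1 model 0 ANKHD1 junctions were called, as were 0 of all 94959 tested (2298 at an unadjusted p under 0.05). limma called 2, adding the lower share of the most used acceptor. Without any one library 1 ANKHD1 junction was called at day 4 and 0 at day 8, while the count over all junctions at day 4 was 8 (without wild type replicate 2) to 110 instead of 327. The share difference was 21.3 to 21.8 points without a library at day 4, 22.9 points over the most used and the alternative acceptor only, and -24.1 to 10.6 points without a library at day 8. The log2 change of the ANKHD1 level was -0.29 to -0.10 at day 4 and -0.35 to 0.074 at day 8 without a library, positive without wild type day 8 replicate 1. With the replicate block it was -0.18 at day 4 and -0.16 at day 8. The readthrough's log2 change was -0.24 to 0.17 at day 4 and -0.28 to 0.22 at day 8 without a library, and 0.023 at day 8 with all 8 libraries. Genes called at day 4 were 75, 1641 by DESeq2, 1566 with no filter, 0 with all 8 libraries (1452 at an unadjusted p under 0.05), 0 without either wild type library, and 2631 or 1269 without K700E replicate 1 or 2; members of the 4 lists called were 0, 2 by DESeq2, 4 with no filter and 0 to 5 without a library. The difference at the acceptor 20 nt upstream was 2.25 or 0.916 points without K700E day 4 replicate 1 or 2. Donor use calls over all junctions were 20 at day 4, 81 by limma, 48 with no filter, 13 by library size, 8 with the block, 0 with all 8 libraries (1461 at an unadjusted p under 0.05) and 0 to 58 without a library. With the replicate block 1 ANKHD1 junction was called at day 4 and 0 at day 8; the libraries share only a number, with a correlation of deviations of 0.153 at day 4 and 0.264 at day 8. With known-target acceptors 10 to 30 nt upstream, the 4 medians above 30% became 20.4% to 23.9% and the other 4 were 0% to 2.89%. The cause of these changes was not tested.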
